A study of Arabidopsis thaliana with 6 samples.

Results

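The cytokinin oxidase/dehydrogenase (CKX) family of Arabidopsis thaliana was followed in RNA-seq libraries from whole siliques, the fruits that enclose the developing seeds. Its 7 members were taken by locus from the deposited table of 27779 gene rows, and all 7 were listed there: CKX1 (AT2G41510), CKX2 (AT2G19500), CKX3 (AT5G56970), CKX4 (AT4G29740), CKX5 (AT1G75450), CKX6 (AT3G63440) and CKX7 (AT5G21482). Siliques of genotype WT were compared with those of the mutant agc1-4, both 3 days after pollination, with 3 libraries per genotype. The labels name no treatment, and the columns of WT carried the stem Col and those of agc1-4 the stem sr. Neither the kind of mutation in agc1-4 nor the number of plants or siliques behind a library was stated. The p-values below therefore rest on library-to-library spread alone, part of which may be technical.

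Cytokinins are adenine-derived plant hormones that drive cell division. CKX enzymes end their action by cutting off the side chain, using a flavin (FAD) held covalently by a histidine. Family members differ in where they are expressed and in the compartment they reach, CKX7 being the cytosolic one and CKX2 a secreted one. In young seeds CKX2 is known from the endosperm, the tissue that nourishes the embryo, where it acts downstream of the HAIKU pathway of seed size control.

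The coding sequences of the 7 genes were read from the RefSeq genome of Arabidopsis (TAIR10.1) by locus tag, taking the longest annotated protein of each gene. They are shown because members with near-identical sequence could exchange reads. Each line gives 33 bases of coding strand around the Gly-His-Ser motif, whose histidine carries the FAD, with the 3 codons of the motif in capitals.
CKX1: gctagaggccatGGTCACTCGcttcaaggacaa
CKX2: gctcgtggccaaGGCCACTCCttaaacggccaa
CKX3: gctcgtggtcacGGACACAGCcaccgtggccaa
CKX4: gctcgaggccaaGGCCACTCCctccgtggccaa
CKX5: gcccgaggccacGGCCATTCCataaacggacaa
CKX6: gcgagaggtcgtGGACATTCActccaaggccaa
CKX7: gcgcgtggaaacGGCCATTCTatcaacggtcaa
The motif occurred 1 time in each protein, and over the 21 pairs of genes the stretch differed at 6 to 14 of its bases. Over whole proteins the pairs were 42.1% to 69.5% identical, and over coding sequences 51.9% to 75.1%. CKX2 and CKX4 were the most alike pair on both scales, followed by CKX1 and CKX6 with 61.5% protein identity. The longest run of bases shared without a mismatch by any pair of coding sequences was 26, between CKX2 and CKX3. The read length was not given in the sources used here.

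**Figure D1:**
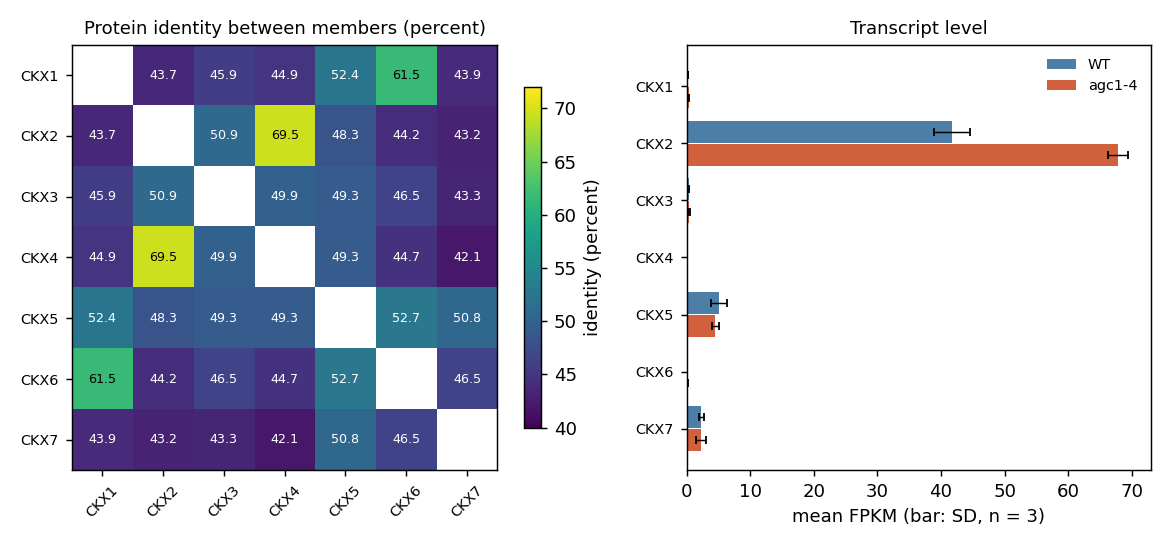
Left, protein identity in percent for each pair of CKX members, on a colour scale; right, mean FPKM of each member in WT (blue) and agc1-4 (orange), with bars for the SD over 3 libraries (not drawn for CKX4, which was listed at 0 in 5 libraries). CKX2 and CKX4 are the most alike pair at 69.5%, yet CKX2 has the longest bars and CKX4 none that can be seen.

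Total counts per library ranged from 7973366 to 11812934. The targeted gene, taken from background knowledge as the protein kinase gene AT5G40030, had 10, 39 and 16 counts in WT replicates 1, 2 and 3. In agc1-4 it had 2, 7 and 1 counts, and the sums were 65 for WT and 10 for agc1-4. Its log2 fold change was -2.66 ± 0.54 (SE, edgeR adjusted p = 0.000983). Markers of the silique were present: the fruit wall list of 6 genes summed to 446.69 to 503.33 FPKM, and the seed coat list of 8 genes to 620.3 to 809.23 FPKM, per library. FPKM are fragments per kilobase of gene scaled to library size, so that levels can be compared between genes.

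CKX2 transcript dominated the family in every library. It stood at 44.88, 41.04 and 39.35 FPKM in WT replicates 1, 2 and 3, and at 69.72, 67.01 and 66.96 FPKM in agc1-4 replicates 1, 2 and 3. The lowest agc1-4 library lay above the highest WT library. The mean rose from 41.8 ± 2.83 to 67.9 ± 1.58 FPKM (SD, n = 3), a 1.63-fold rise with a log2 fold change of 0.70 ± 0.07 (SE, 95% interval 0.57 to 0.84, edgeR adjusted p = 1.01e-08). These values rest on 633, 798 and 553 counts for WT and on 1373, 1071 and 890 counts for agc1-4. Permuting the libraries (exact two-sided test of mean FPKM) gave p = 0.1, the lowest value possible with 3 libraries against 3. Among all genes tested, CKX2 had the 45th smallest p.

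CKX2 was thus 1 of 3 tested members called at an adjusted p under 0.05, and 1 of 3 whose FPKM did not overlap between genotypes. Among all 18828 genes tested, 13.6% were called, 6.55% were called higher in agc1-4, 7.07% were called lower, and 29.5% had FPKM values that did not overlap between genotypes. With only 3 members tested, a share of the members says little beside these figures. In a whole silique, more cells that express a gene and more transcript per cell cannot be told apart.

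**Figure D2:**
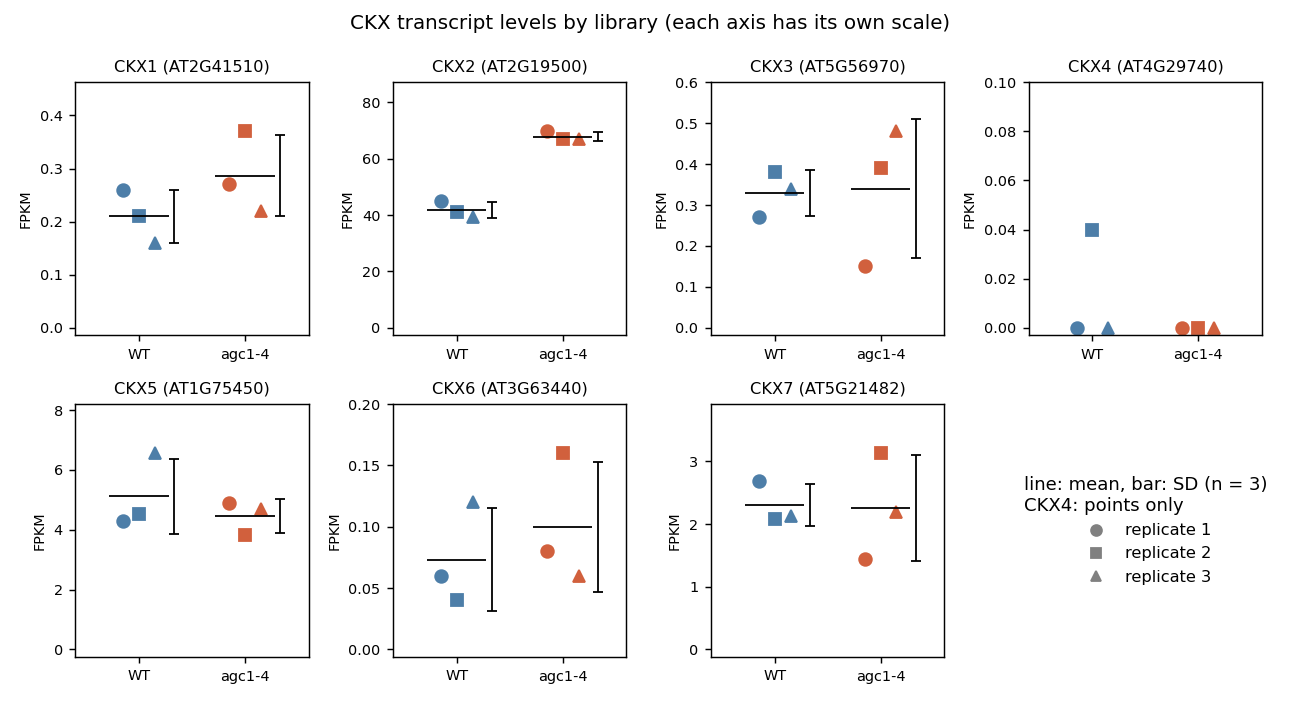
FPKM of each CKX gene (vertical axes, each on its own linear scale) in WT (blue) and agc1-4 (orange), 1 point per library with its shape giving the replicate number; lines show means and bars the SD of 3 libraries. The CKX2 points separate fully by genotype, from 39.35 to 44.88 in WT and from 66.96 to 69.72 in agc1-4, while the points of the other 6 genes overlap.

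CKX5, which together with CKX3 is known to restrain the activity of flower-forming meristems and seed number, was the next most abundant member. Its FPKM was 4.28, 4.52 and 6.56 in WT and 4.89, 3.83 and 4.69 in agc1-4, in order of replicate. WT replicate 3 was the highest library and agc1-4 replicate 2 the lowest, and the other 4 lay between. The log2 fold change was -0.10 ± 0.17 (SE, 95% interval -0.44 to 0.24, edgeR adjusted p = 0.755), an interval that still holds modest changes in either direction. Its sign was not stable: without WT replicate 3 it was 0.12, and without agc1-4 replicate 2 it was 0.02.

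The CKX5 counts were not whole (90.61, 126.46 and 138.48 in WT, 156.71, 91.75 and 95.57 in agc1-4), and the cause was not tested. In the RefSeq annotation the CKX5 gene overlaps 665 bases of UBC16, a ubiquitin-conjugating enzyme gene on the opposite strand, whose counts were not whole either. It also overlaps 2 long non-coding RNA genes with no row in the table as given, AT1G09553 on the same strand by 243 bases and AT1G09557 on the opposite strand by 217. UBC16 was more abundant than CKX5, at 37.4 ± 1.51 FPKM in WT and 37.2 ± 1.31 in agc1-4 (log2 fold change 0.00 ± 0.08, edgeR adjusted p = 0.995). The strand of the libraries was not given in the sources used here, and reads of the same-strand RNA could not be separated by strand in any case, so the level of CKX5 itself is uncertain. CKX2 has 2 overlapping genes, both on the opposite strand. AT2G00640, a non-coding RNA gene, overlaps it by 666 bases and has no row in the table as given, so its reads, if any, could not be told apart from those of CKX2 without strand. RECA2 overlaps it by 30 bases. RECA2 had 62 to 109 counts per library and was not called (log2 fold change 0.16 ± 0.17, edgeR adjusted p = 0.592), and CKX2 counts were whole in all 6 libraries.

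CKX7, the cytosolic member, ranked next. It measured 2.69, 2.08 and 2.13 FPKM in WT and 1.44, 3.13 and 2.19 FPKM in agc1-4. The lowest and the highest library were both agc1-4, and the WT libraries lay between them. The log2 fold change was -0.04 ± 0.25 (SE, 95% interval -0.55 to 0.47, edgeR adjusted p = 0.943). Its sign turned without WT replicate 1 (0.09) and without agc1-4 replicate 1 (0.24).

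The remaining 4 members were close to the detection limit and had too few counts to be tested. CKX1, known from meristems and root tips, was read 5, 6 and 3 times in WT and 7, 8 and 4 times in agc1-4. Relative to library size the ratio of agc1-4 to WT was 1.32, with an exact 95% counting interval of 0.627 to 2.84. CKX3 was read 4, 7 and 4 times in WT and 3, 6 and 6 times in agc1-4, a ratio of 0.972 with an interval of 0.443 to 2.13. CKX6, known from vascular tissue, had 1 to 3 counts per library, 4 in all in WT and 6 in agc1-4 (ratio 1.46, interval 0.346 to 7.03). CKX1 and CKX6 also overlap opposite-strand genes, so their few reads are uncertain in origin. Each of the 3 intervals given for CKX1, CKX3 and CKX6 holds no change as well as a rise above 2-fold, and covers counting error only. In edgeR without the filter their log2 fold changes were 0.39 ± 0.66, -0.01 ± 0.65 and 0.50 ± 1.14 (SE), with adjusted p = 0.772, 0.998 and 0.841.

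CKX4, known from trichomes, stipules and the root cap, had 1 count in WT replicate 2 and 0 in the other 5 libraries. The limit that a count of 0 allows, 3 counts, came to 0.254 to 0.376 CPM (counts scaled to library size), depending on the library. Transcript of the closest relative of CKX2 in the family was therefore at or under the detection limit in siliques of both genotypes at this depth.

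Ordered by mean FPKM the family ran CKX2, CKX5, CKX7, CKX3, CKX1, CKX6, CKX4. CKX2 was above CKX5, CKX5 above CKX7 and CKX7 above CKX3 in 6 of 6 libraries, without overlap of their FPKM ranges. Below CKX7 neighbours in the order overlapped: CKX3 spanned 0.15 to 0.48 FPKM, CKX1 0.16 to 0.37, CKX6 0.04 to 0.16 and CKX4 0 to 0.04. Against all rows of the table, CKX2 exceeded 87.9% to 89.6% of genes in WT libraries and 93.3% to 93.7% in agc1-4 libraries.

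The summed FPKM of the 7 members was 52.44, 48.31 and 48.66 in WT and 76.55, 74.89 and 74.60 in agc1-4. CKX2 made up 85.6%, 85.0% and 80.9% of it in WT and 91.1%, 89.5% and 89.8% in agc1-4. The other 6 members together held 7.27 to 9.31 FPKM in WT and 6.83 to 7.88 FPKM in agc1-4, ranges that overlap.

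**Figure D3:**
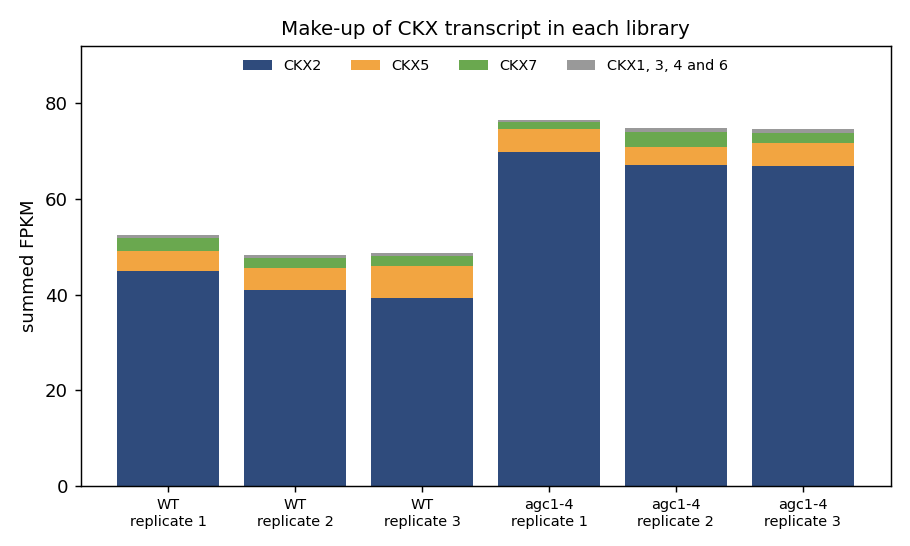
Stacked bars of FPKM (vertical axis, from 0) for CKX2, CKX5, CKX7 and the sum of CKX1, CKX3, CKX4 and CKX6 in each of the 6 libraries. CKX2 fills 80.9% to 91.1% of every bar, and the agc1-4 bars reach 74.60 to 76.55 FPKM against 48.31 to 52.44 in WT.

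Whether CKX2 moved apart from its relatives was tested on the log2 ratio of CKX2 to another member within each library, for the 5 other members with a value above 0 in every library. The ratio to CKX5 was 3.39, 3.18 and 2.58 in WT and 3.83, 4.13 and 3.84 in agc1-4, which do not overlap. Its mean was 0.88 higher in agc1-4 (exact two-sided permutation p = 0.1, 0.25 adjusted over the 5 ratios). The log2 ratio to CKX7 was 4.06, 4.30 and 4.21 in WT and 5.60, 4.42 and 4.93 in agc1-4, also without overlap, and differed by 0.79 (exact permutation p = 0.1, adjusted p = 0.25). Both p-values are the smallest the design can give, so no ratio could pass 0.05. For CKX3, CKX1 and CKX6, with few counts, the log2 ratios were higher in agc1-4 by 0.81, 0.26 and 0.23 and overlapped between genotypes (exact permutation p = 0.2, 0.4 and 0.6).

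Some markers of the endosperm rose in agc1-4 as well. Of 14 listed markers, 13 were tested, of which 6 rose, 0 fell and 7 were not called. Among all genes tested 6.55% rose and 7.07% fell. The median log2 fold change of the markers was 0.39 against 0.00 over all genes tested. DESeq2 and limma also called 6 each. Over all genes DESeq2 called 1596 of 23826, and limma 1882 or 1820 of 18565, depending on its setting. The 6 called by edgeR were ZOU, ALE1, MPC, AGL40, SUC5 and FWA. In that order their log2 fold changes were 1.24 ± 0.28, 0.63 ± 0.11, 0.63 ± 0.08, 0.54 ± 0.10, 0.48 ± 0.09 and 0.39 ± 0.07 (SE), beside 0.70 ± 0.07 for CKX2. The log2 fold change was below 0 for 3 markers, none of them called: AGL80 at -0.49 ± 0.31, AGL62 at -0.11 ± 0.12, and MEA at -0.36 ± 0.17 (SE; edgeR adjusted p = 0.332, 0.615 and 0.172). For MEA, a Polycomb gene, every WT library (3.34 to 3.79 FPKM) lay above every agc1-4 library (2.53 to 3.03 FPKM). MPC, an imprinted gene expressed from the maternal copy, was the most abundant of the 14, at 57.63, 60.11 and 65.65 FPKM in WT and 91.28, 88.34 and 105.33 in agc1-4. FIS2, PHE1 and AGL62, which define the early endosperm, were all detected but not called. The log2 fold change of FIS2 was 0.44 ± 0.17 and that of PHE1 0.03 ± 0.11 (SE, edgeR adjusted p = 0.0867 and 0.916). The summed FPKM of the 14 markers was 174.22 to 189.52 in WT and 235.57 to 260.92 in agc1-4, a 1.35-fold difference of the means. The sum weights each marker by its abundance. MPC alone supplied the largest part of the sum and of its rise, so the 1.35-fold difference does not describe the 14 markers evenly. None of the 14 was at 0 in every library; IKU2 had 0 to 2.05 counts per library.

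Expressed as a percentage of that sum, a measure chosen after the values were seen, CKX2 was 25.8%, 22.6% and 20.8% in WT and 29.2%, 28.4% and 25.7% in agc1-4. The lowest agc1-4 value fell just under the highest WT value, so the genotypes overlapped. On the means this percentage was 1.20-fold higher in agc1-4, where CKX2 alone rose 1.63-fold. MPC, as the largest term of the sum, weighs most in this percentage too. The part that endosperm content plays in the CKX2 difference was not tested.

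**Figure D4:**
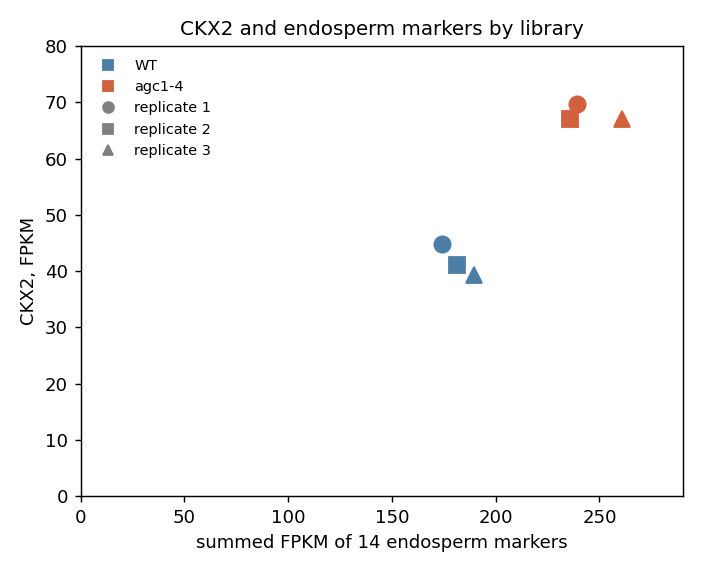
CKX2 FPKM (vertical axis) against the summed FPKM of 14 endosperm markers (horizontal axis) in each library, both axes from 0; colour gives the genotype and shape the replicate number. The 3 agc1-4 libraries lie above and to the right of the 3 WT libraries, and within WT the library with the lowest marker sum, replicate 1, has the highest CKX2.

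Among 5 listed embryo markers, 4 were tested and 3 rose (LEC1, LEC2 and WOX8), where 6.55% of all genes did. For LEC2 no WT library exceeded 5 counts, while no agc1-4 library fell below 13. WOX8 was low in WT as well, with at most 12. A gene as low in WT as LEC2 passes the low-count filter only when it is higher in agc1-4. The share of 3 in 4 is thus partly set by the filter and cannot be weighed against 6.55%. WOX9 was not called (log2 fold change -0.20 ± 0.26, edgeR adjusted p = 0.685), and WOX2, with 5 counts over WT and 3 over agc1-4, was not tested. The summed FPKM of the 5 was 4.77 to 6.95 in WT and 15.21 to 15.71 in agc1-4. In the seed coat list 2 of 8 markers rose and 0 fell, and in the fruit wall list 2 of 6 fell and 0 rose, where 7.07% of all genes fell. DESeq2 called 2 embryo, 1 seed coat and 1 fruit wall marker, and limma 3, 2 and 1. Their part in the CKX2 difference was not tested either.

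Of the HAIKU pathway, through which CKX2 is activated in the endosperm, 2 of 4 genes were tested, and 0 were called by edgeR, DESeq2 or limma, with 0 at an unadjusted p under 0.05. MINI3 (WRKY10), the WRKY transcription factor of the pathway, had 5.42, 4.11 and 3.49 FPKM in WT and 5.21, 5.92 and 5.66 in agc1-4. WT replicate 1 lay above the lowest agc1-4 library. MINI3 had a log2 fold change of 0.37 ± 0.18 (SE, 95% interval -0.01 to 0.74, edgeR adjusted p = 0.198) and was not called. IKU1 was not called either, at 15.1 ± 1.31 FPKM in WT and 14.5 ± 0.106 in agc1-4. IKU2, a receptor kinase gene, and SHB1 had too few counts to be tested, SHB1 with 27 over the WT libraries and 14 over agc1-4.

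The other steps of cytokinin action were followed in 64 further genes listed by locus. With the 4 HAIKU genes these made 68, of which 67 were in the table and 42 passed the filter. Of the 42, 2 rose and 2 fell, which is 9.52% against 13.6% of all genes, and their median log2 fold change was -0.01 against 0.00. The number called was 2 without WT replicate 1 or without agc1-4 replicate 3. In edgeR 12 of the 42 had an unadjusted p under 0.05. These were 2 of synthesis, 3 of conjugation and transport, 2 of receptors and phosphotransfer, 2 type-B and 3 type-A response regulators. Many other genes passed this threshold, so the 12 are not read as a result about the pathway. Among all 18828 genes tested, MEA, which lay under it, ranked 4690th by p, and MINI3, which lay above it, ranked 5080th. The number of genes under the threshold thus lay between these ranks.

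Among genes of cytokinin synthesis, LOG8 was the only call among 7 tested, 1 higher and 0 lower. LOG enzymes release the active hormone from its nucleotide. LOG8 stood at 12.27, 13.61 and 14.53 FPKM in WT and at 22.67, 24.33 and 20.68 in agc1-4. Every agc1-4 library was above every WT library, and the log2 fold change was 0.74 ± 0.11 (SE, edgeR adjusted p = 1.54e-05). LOG1, the most abundant tested LOG gene, had 52.7 FPKM in WT and 51.9 in agc1-4 and was not called (log2 fold change -0.01 ± 0.08, edgeR adjusted p = 0.945). LOG5 went the other way from LOG8, at 3.67, 3.71 and 3.77 FPKM in WT and 3.31, 1.58 and 1.65 in agc1-4. Its genotypes did not overlap, but it was not called (log2 fold change -0.56 ± 0.25, edgeR adjusted p = 0.140). Isopentenyltransferases attach the side chain to adenine nucleotides or, in the case of IPT2 and IPT9, to tRNA. Of the 9 genes, 4 (IPT1, IPT2, IPT5 and IPT9) were tested and 0 were called by edgeR, DESeq2 or limma, with 0 at an unadjusted p under 0.05.

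Among 6 tested genes of conjugation and transport, 1 fell and 0 rose. The nucleoside transporter gene ENT6 had 2.69, 2.78 and 1.33 FPKM in WT and 1.56, 1.08 and 1.2 in agc1-4. WT replicate 3 fell within the agc1-4 range. The log2 fold change was -0.88 ± 0.29 (SE, edgeR adjusted p = 0.0386). Neither DESeq2 nor limma called it, and 5 of the 6 fits without 1 library did not either.

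Of 7 tested genes for receptors and phosphotransfer proteins, which pass the signal from the membrane to the nucleus, 1 fell and 0 rose. The receptor gene AHK2 had 7.0, 6.58 and 7.02 FPKM in WT and 5.68, 5.96 and 4.92 in agc1-4. The genotypes did not overlap, and the log2 fold change was -0.31 ± 0.10 (SE, edgeR adjusted p = 0.0318). Neither DESeq2 nor limma called it, and leaving out WT replicate 1 or 3, or agc1-4 replicate 1 or 3, ended the call. The other receptors AHK3 and AHK4 were not called, with log2 fold changes of -0.15 ± 0.06 and -0.16 ± 0.11 (edgeR adjusted p = 0.115 and 0.353). Their FPKM did not overlap between genotypes either, every agc1-4 library being lower. Of the 7 tested genes of this list, 4 did not overlap, where 29.5% of all genes did not.

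Type-B response regulators are the transcription factors of the pathway. Of 7 tested, ARR19 rose and 0 fell. ARR19 had 1.81, 1.47 and 1.79 FPKM in WT and 2.80, 3.76 and 4.37 in agc1-4, without overlap, on 23 to 62 counts per library. Its log2 fold change was 1.14 ± 0.24 (SE, edgeR adjusted p = 0.00113). The more abundant ARR1, ARR10 and ARR12 were not called, with log2 fold changes of -0.30 ± 0.11, -0.21 ± 0.16 and 0.01 ± 0.10 (edgeR adjusted p = 0.0727, 0.448 and 0.955). ARR11, under 1 FPKM, was not called at -0.70 ± 0.36 (edgeR adjusted p = 0.213). For ARR1 and ARR11 every agc1-4 library was below every WT library. With ARR19, 3 of the 7 tested did not overlap, where 29.5% of all genes did not. ARR14, the most abundant of the 7 tested at 12.7 FPKM in WT and 14.1 in agc1-4, was not called either. Its log2 fold change was 0.13 ± 0.12 (SE, edgeR adjusted p = 0.559).

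Type-A response regulators are rapidly induced by cytokinin and serve as readouts of the response. Of 8 tested, 0 were called by edgeR or DESeq2 and 1 by limma, and 3 had an unadjusted p under 0.05 in edgeR. Many genes outside the list also passed this unadjusted threshold. Of the 8, the log2 fold change was above 0 for 5 and below it for 3. ARR16 had the smallest p, at 2.17, 1.71 and 2.17 FPKM in WT and 3.52, 3.50 and 3.13 in agc1-4. Its genotypes did not overlap, but the log2 fold change of 0.70 ± 0.25 (SE) missed the threshold (edgeR adjusted p = 0.0592). It was the 1 called by limma (adjusted p = 0.0315 and 0.0359 with a pseudocount of 1 and 0.1), and edgeR without WT replicate 3 also called it (adjusted p = 0.0384). ARR7 was more abundant, at 17.8 ± 1.03 FPKM in WT and 21.7 ± 2.31 in agc1-4 (SD, n = 3), without overlap. Its log2 fold change was 0.29 ± 0.11 (SE, edgeR adjusted p = 0.0998). ARR5, often used as a reporter of cytokinin response, had 3.18, 3.78 and 4.75 FPKM in WT and 2.45, 2.95 and 2.68 in agc1-4, also without overlap. For ARR5 the log2 fold change was -0.54 ± 0.22 (SE, edgeR adjusted p = 0.104). Of 5 tested cytokinin response factors, 0 were called by edgeR, DESeq2 or limma, with 0 at an unadjusted p under 0.05, and CRF4 had the smallest p (log2 fold change 0.42 ± 0.26, edgeR adjusted p = 0.326).

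**Figure D5:**
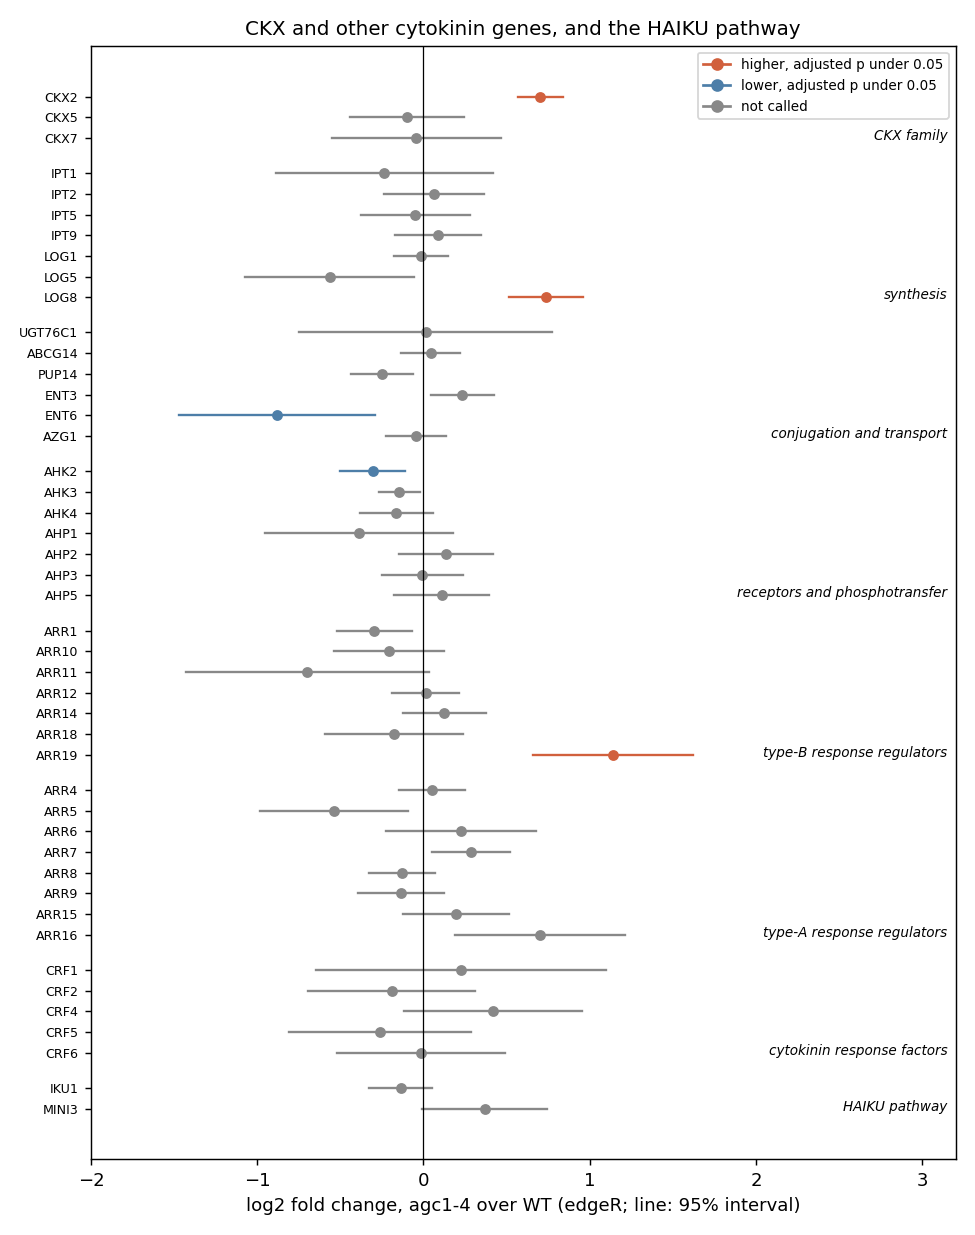
Log2 fold change of agc1-4 over WT (horizontal axis; point with 95% interval from edgeR) for the 3 tested CKX genes and the 42 tested genes of the other lists, grouped by role. Orange marks genes higher and blue genes lower at an adjusted p under 0.05; CKX2 at 0.70, LOG8 at 0.74 and ARR19 at 1.14 are higher, and ENT6 and AHK2 are lower.

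The genes whose profile over the 6 libraries was most like that of CKX2 were sought among 18187 candidates with a mean of at least 1 FPKM, by the root mean square difference of mean-centred log2 CPM. The 3 nearest were VSP2 (AT5G24770, difference 0.042), IRX10 (AT1G27440, 0.055) and UXS6 (AT2G28760, 0.056). VSP2 encodes a vegetative storage protein, IRX10 an enzyme of xylan synthesis and UXS6 an enzyme that makes UDP-xylose. Their mean FPKM went from 109 to 175, from 44.7 to 71.7 and from 93.4 to 146, and 39 genes in all lay within 0.1 of CKX2. For CKX5, the nearest were AT3G28810, AT1G19490 and AT5G06450 (0.052, 0.060 and 0.063). For CKX7 they were AT4G14650, AT5G65495 and AT5G37290, at 0.096, 0.120 and 0.138, and 1 gene lay within 0.1.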

How the data were processed

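RNA was extracted with Trizol from frozen siliques and made into Illumina libraries, per the labels' protocols. The authors deposited 1 table with 2 columns per library, 1 of estimated counts (4.32% to 4.86% of values not whole) and 1 of FPKM, per the file headers. Strandedness, aligner, read counter and build are not given in the sources used here. The estimated counts were rounded and tested over all genes with edgeR 4.0.16 in R 4.3.3 (TMM, filterByExpr, robust quasi-likelihood F-test, no covariates), which left 18828 of 27779 rows. The p-values were adjusted by Benjamini-Hochberg over these 18828, and a call is an adjusted p under 0.05. SE were obtained from the log2 fold change and its F statistic.

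Alternatives tried were a block for the replicate number, leaving out each library, DESeq2 1.42.0, RLE size factors, omission of the low-count filter, and limma 3.58.1 on log2(FPKM + 1) and log2(FPKM + 0.1) for genes with 1 FPKM or more in at least 3 libraries. Coding and protein sequences came from RefSeq TAIR10.1 by locus tag, with identities over aligned positions from mafft 7.526. No coordinates are given, because the build of the files is not known. Members, lists and tests were chosen with earlier results of these data known. Named genes were all members, the called genes of each pathway list or else the 1 with the smallest p, and the 3 genes most alike in profile to each tested member. Other genes of the pathway lists were named after their values were seen. They were LOG1, LOG5, ARR1, ARR5, ARR7, ARR10, ARR11, ARR12, ARR14, ARR21, AHK3, AHK4, IPT genes, IKU1, IKU2 and SHB1. Endosperm markers named in the same way were FWA, FIS2, PHE1, AGL40, AGL62, AGL80, MEA, MPC, ZOU, ALE1 and SUC5. The embryo markers LEC1, LEC2, WOX2, WOX8 and WOX9 were also named after their values were seen. Of the listed loci, ARR2 was not analysed here.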

Additional observations from a re-analysis of the deposited data

How the results depend on the processing

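CKX2 was called higher under each of the 12 alternatives, with a log2 fold change of 0.67 to 0.76 and an adjusted p of 3.00e-19 to 0.000191, and it was the 1 member called under each. CKX5 and CKX7 were called under none of the 12; without 1 library their log2 fold changes ran from -0.22 to 0.12 and from -0.37 to 0.24. AGC1-4 was called lower in each of the 9 alternatives that tested it (log2 fold change -3.76 to -2.26). It had too low a level to be tested in limma or without WT replicate 2, which held most of its WT counts. LOG8 and ARR19 kept their calls under every alternative, unlike ENT6 and AHK2. The number of genes called was 2564, against 1596 in DESeq2 and 1688 to 2816 without 1 library; that of pathway genes was 4, against 2 to 6 without 1 library. Rescaling FPKM to TPM put CKX2 at 64.1 in WT and 102 in agc1-4, and the sum of the 7 members at 76.5 and 113. Ratios of CKX2 to the other members kept their sign on TMM-scaled counts. Same-numbered libraries did not deviate together (r = -0.028, -0.002 and 0.030 across genes), and with the replicate number as a block the CKX2 log2 fold change was 0.70 (adjusted p = 1.86e-08). For CKX1, CKX3, CKX4 and CKX6 the depth is the limit.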

Other observations

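Outside the CKX family, 25 cytokinin and HAIKU pathway genes were in the table with too few counts for the main test, 23 of them with at least 1 count. In edgeR without the filter on low counts 1 of these was called, where that fit called 2940 of 23826 genes. ARR21, a type-B response regulator gene, was read 1, 4 and 4 times in WT and 15, 9 and 19 times in agc1-4, with every agc1-4 library above every WT library (log2 fold change 2.20 ± 0.60, SE, adjusted p = 0.00466). It was named after its values were seen, as were the genes that follow. Of the isopentenyltransferase genes with too few counts, IPT7 was nearest the threshold, read 20, 14 and 4 times in WT and 6, 5 and 4 times in agc1-4, and was not called (adjusted p = 0.0929). IPT3 was read 4, 5 and 10 times in WT and 1, 1 and 3 times in agc1-4 (adjusted p = 0.134). IPT8 was read 0, 2 and 0 times in WT and 4, 1 and 6 times in agc1-4, and was not called (adjusted p = 0.216). At these counts a single library can decide a value.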
